A study of Rattus norvegicus with 12 samples.

Results

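The comparison described here is 6 h against 3 h of treatment with PT109B in primary rat astrocytes: what was still moving after 3 h. PT109B is a small molecule known here by its code name only, and the series' title concerns the conversion of astrocytes into dopaminergic neurons. The cells were primary astrocytes from the midbrain of newborn, wild-type SD rats, grown in DMEM with serum, and every treated culture received 10 µM PT109B. The series holds 12 RNA-seq libraries in 4 groups of 3 (untreated control at 0 h, and 1.5, 3 and 6 h of PT109B). The 6 libraries at 3 h and 6 h belong to this comparison, and they were chosen by the label of treatment time alone. All genes of the deposited table were considered, and 9151 of 9721 passed a filter on low counts. By symbol, 865 of the 1072 distinct genes on the gene lists used here were in that table. Shares of genes tested therefore refer to genes of the table and not to all rat genes. The controls were not used in the test, and their levels, with those at 1.5 h, are given beside the results as a description. The labels name no untreated culture kept for 3 h or 6 h, so hours of treatment and hours in culture cannot be told apart. Nor do they say whether the 3 replicates of a group came from separate cultures, and the spread behind each p-value may therefore be technical.

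Astrocytes answer a stimulus in waves. Immediate early genes such as the Fos, Egr and Nr4a families encode short-lived transcription factors. They are transcribed within minutes by factors already present, and their messages decay quickly once transcription stops. ERK signalling then induces its own inhibitors, the Dusp phosphatases and Sprouty proteins. Bone morphogenetic protein (BMP) signalling acts through receptor Smads and holds Id proteins high, which keep neural precursors from neuronal differentiation and favour astrocytes.

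In each of the groups 1 library stood apart. Levels are given as CPM, counts scaled to the library total (here by TMM over the 12 libraries). Across genes, the log2 CPM of 3 h replicates 1 and 2 had r = 0.9916 and those of 6 h replicates 2 and 3 had r = 0.9904. The remaining libraries, 3 h replicate 3 and 6 h replicate 1, had r between 0.9376 and 0.9414 with the other libraries of their own groups and r = 0.9765 with each other. The genes that set them apart include those of the cell cycle. The mean level of 34 mitosis genes was 2.69, 2.61 and 5.64 log2 CPM in 3 h replicates 1, 2 and 3, and 5.61, 2.28 and 2.45 in 6 h replicates 1, 2 and 3. The control libraries lay between 5.92 and 6.4 for the same genes. Replicates of the alike pairs still differed by more than sampling noise (chi-square per gene of 4.428 at 3 h and 7.391 at 6 h), so no library was counted as a copy of another. The 6 libraries held between 9535513 and 12254968 counts. Whether these 2 libraries come from another preparation, or carry the right time labels, cannot be told from the labels, and each result that rests on them carries this limit. At 1.5 h replicate 3 stood apart as well, with a mean of 3.78, 3.63 and 6.87 log2 CPM over 21 microglia markers in replicates 1, 2 and 3, so the means given for 1.5 h mix unlike libraries. Control replicate 3 differed from the other controls in part. Control replicates 1, 2 and 3 summed to 1685, 1721 and 941 CPM over 9 mural cell markers and to 14470, 13890 and 20080 CPM over 20 astrocyte genes. Over 30 immediate early genes their means were close, at 4.47, 4.45 and 4.53 log2 CPM. Control means carry this limit. Because of the 2 libraries at 3 h and 6 h, each result is given in up to 3 ways. The first uses all 6 libraries (3 against 3). The next sets 6 h replicates 2 and 3 against 3 h replicates 1 and 2 (2 against 2). The last is the difference between 6 h replicate 1 and 3 h replicate 3 (the separate libraries), which is 1 library against 1 and has no test.

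Defining markers of the labelled cell type were present in all libraries, and at 3 h and 6 h the summed level of 20 astrocyte genes was 14400 to 21580 CPM. Markers of other cell types were present too. At 3 h and 6 h their summed level was 2732 to 3929 CPM over 21 microglia markers, 1205 to 2074 CPM over 12 fibroblast and meningeal markers and 992.2 to 1451 CPM over 14 markers of the oligodendrocyte lineage. It was 1008 to 1270 CPM over 9 mural cell markers, 208.4 to 821.3 CPM over 8 neuron markers, 97.93 to 199.3 CPM over 9 endothelial markers and 5.209 to 13.04 CPM over 2 ependymal markers. In bulk RNA, fewer cells of a type and less RNA per cell cannot be told apart, and this holds for every level below.

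Between 3 h and 6 h, 7 genes passed an adjusted p of 0.05 in all 6 libraries (edgeR quasi-likelihood test, Benjamini-Hochberg adjustment over all genes tested), which is 0.0765% of the genes tested. Of these, 5 fell (0.0546%) and 2 rose (0.0219%). Among the genes that fell were Egr3, an immediate early zinc finger transcription factor, and Xirp1, an actin-binding protein of striated muscle. Smad9, a receptor Smad of the BMP pathway, Bmpr1a, a type I BMP receptor, and Arhgef28, a guanine nucleotide exchange factor, fell as well. The genes that rose were Scn4b, an auxiliary subunit of voltage-gated sodium channels, and Cdr2l, a relative of an onconeural antigen of the cerebellum. At an unadjusted p of 0.05 the test called 1619 genes (17.7%).

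Egr3 stood at 42.5, 44.4 and 41.5 CPM at 3 h and 8.21, 5.38 and 4.76 at 6 h. All libraries at 6 h lay below all at 3 h, with log2 fold change -2.77 ± 0.24, adjusted p = 0.042. Its level was 3.26 ± 0.980 CPM in the controls and 94.1 ± 48.8 CPM at 1.5 h, so that the 6 h libraries lay closer to the controls than to the peak. Xirp1 was at 72.5, 55.8 and 80.7 CPM at 3 h and 15.8, 12.6 and 16.2 at 6 h, with log2 fold change -2.20 ± 0.19, adjusted p = 0.042. Its controls were at 3.51 ± 1.47 CPM and its 1.5 h libraries at 59.6 ± 4.40 CPM, and at 6 h each library was still above each control. For both genes the 6 h level lay between that of the controls and an earlier, higher one.

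The BMP receptor gene Bmpr1a moved away from the controls instead. It was at 223, 241 and 222 CPM at 3 h and 109.7, 109 and 113 at 6 h, without overlap and with little spread inside either group (log2 fold change -1.02 ± 0.10, adjusted p = 0.0478). Controls had 382 ± 42.9 CPM and the 1.5 h libraries 417 ± 23.2 CPM. Smad9, which Bmpr1a and the other type I receptors can phosphorylate, was at 29.7, 34.3 and 25.9 CPM at 3 h and 9.59, 9.24 and 8.38 at 6 h (log2 fold change -1.69 ± 0.18, adjusted p = 0.0478). Against controls at 67.0 ± 2.69 CPM and 1.5 h libraries at 69.7 ± 19.9 CPM, Smad9 was lower at 3 h and lower again at 6 h.

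Arhgef28 was at its control level at 3 h and low at 6 h. Its libraries were at 107, 109 and 98.2 CPM at 3 h and 39.4, 43.1 and 39.7 at 6 h (log2 fold change -1.33 ± 0.11, adjusted p = 0.042), with 105 ± 28.1 CPM in the controls and 101 ± 25.1 CPM at 1.5 h. Scn4b was at 31.4, 32.1 and 37.3 CPM at 3 h and 73.6, 78.8 and 77.1 at 6 h (log2 fold change 1.22 ± 0.12, adjusted p = 0.0478). Its controls, at 31.5 ± 1.25 CPM, lay near the 3 h libraries and its 1.5 h libraries, at 15.2 ± 8.42 CPM, lay lower. Cdr2l was at 27.6, 31.2 and 31.9 CPM at 3 h and 62.8, 68.2 and 72.3 at 6 h (log2 fold change 1.19 ± 0.12, adjusted p = 0.0478), against 31.8 ± 4.76 CPM in controls and 30.3 ± 7.35 CPM at 1.5 h, so that none of the earlier groups came near the 6 h level. All 7 were also past the threshold, in the same direction, in the 2-against-2 comparison, whose libraries are part of the same 6.

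**Figure D1:**
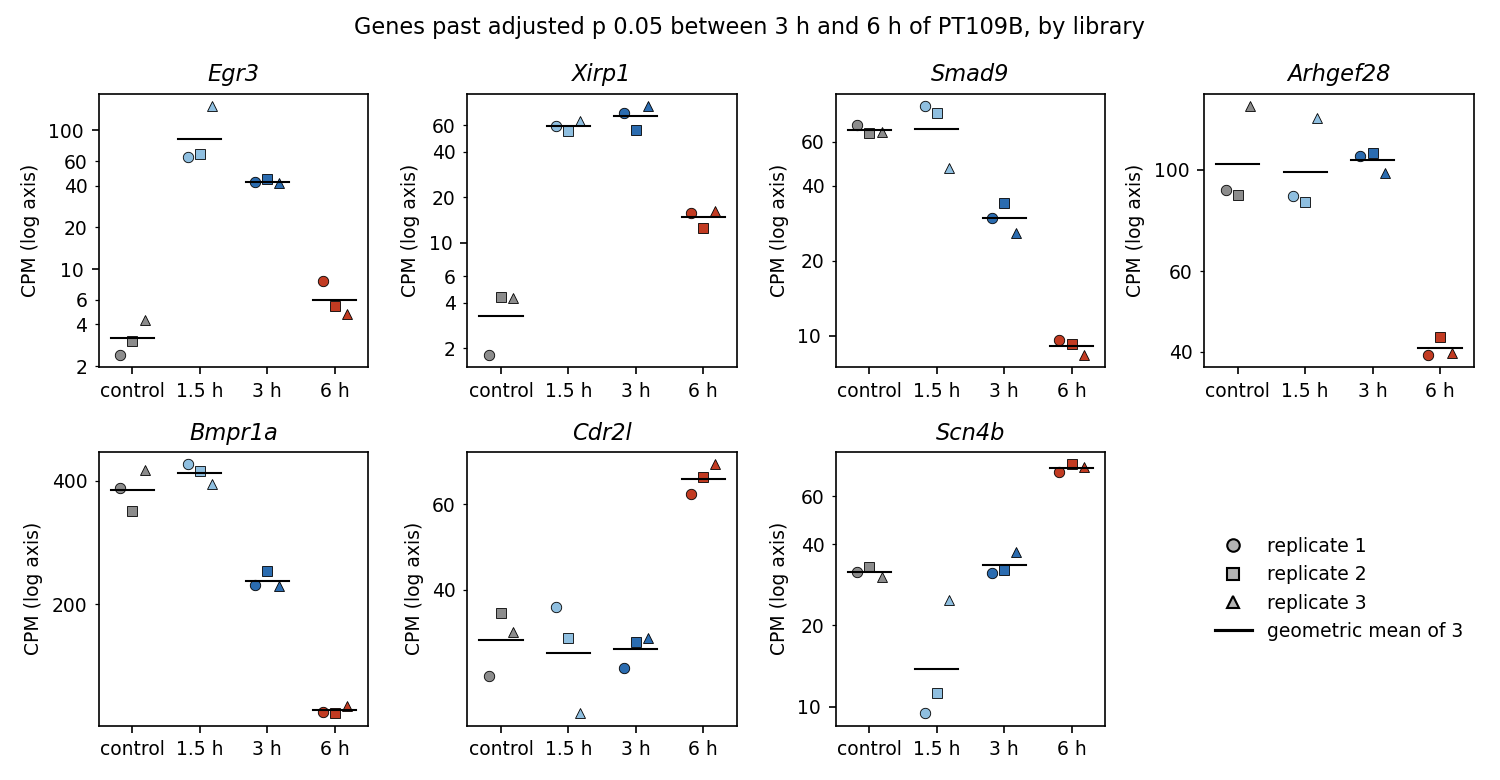
Level of the 7 genes past adjusted p 0.05 between 3 h and 6 h, in CPM on a log axis, in every library of the 4 groups (grey control, light blue 1.5 h, dark blue 3 h, red 6 h; circle, square and triangle for replicates 1, 2 and 3; bar, geometric mean of 3). In every panel the red points lie clear of the dark blue ones, Egr3 and Xirp1 come down from a 1.5 h or 3 h level far above control, Smad9 and Bmpr1a leave the control level, and Scn4b and Cdr2l are highest at 6 h.

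The sequences upstream of 3 of the genes that fell are shown because they were searched for short motifs of signal-dependent factors. The RefSeq table of promoters (build GRCr8, rat, 250 bases before to 50 after the start site) has a window for 4 of the 5, all but Egr3. The AP-1 motif TGAGTCA, which Fos and Jun dimers bind, was found on either strand in the windows of Xirp1 and Bmpr1a, in capitals below, and in neither strand of the Smad9 and Arhgef28 windows. Of all 27457 rat windows, 4.53% hold it, as do 3.63% of the 7043 windows of genes tested here. In 2 against 2, 4.64% of the 1553 windows of genes that fell held it, and 3.24% of 1727 of those that rose. In Xirp1 (chr8:128634962-128635261, minus strand) the first base of the match lies 208 bases before the start site, and in Bmpr1a (chr16:9786812-9787111, minus strand) 204 bases before it, on the opposite strand to the gene. The Smad9 window is at chr2:141106418-141106717, plus strand.
Xirp1: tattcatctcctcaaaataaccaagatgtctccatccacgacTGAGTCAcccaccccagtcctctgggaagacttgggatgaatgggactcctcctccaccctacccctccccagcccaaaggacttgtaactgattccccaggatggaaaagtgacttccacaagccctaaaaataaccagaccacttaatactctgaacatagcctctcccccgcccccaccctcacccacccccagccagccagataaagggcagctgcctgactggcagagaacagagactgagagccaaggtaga
Bmpr1a: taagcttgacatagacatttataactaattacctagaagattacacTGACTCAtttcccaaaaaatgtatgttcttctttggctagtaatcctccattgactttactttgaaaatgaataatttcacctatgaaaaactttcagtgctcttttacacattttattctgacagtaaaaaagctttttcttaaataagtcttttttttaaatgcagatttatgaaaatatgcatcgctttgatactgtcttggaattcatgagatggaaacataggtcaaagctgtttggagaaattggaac
Smad9: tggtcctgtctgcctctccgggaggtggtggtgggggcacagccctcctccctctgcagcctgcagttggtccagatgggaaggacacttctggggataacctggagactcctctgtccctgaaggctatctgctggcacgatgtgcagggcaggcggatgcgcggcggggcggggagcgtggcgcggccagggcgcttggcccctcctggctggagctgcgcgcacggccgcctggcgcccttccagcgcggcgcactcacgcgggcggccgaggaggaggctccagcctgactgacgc
A match describes the letters only, and occupancy was not measured.

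The count of 7 rests on how the libraries that stand apart are treated. Without 3 h replicate 3 and 6 h replicate 1, the same test called 4191 of 9068 genes (46.2%), 2204 higher (24.3%) and 1987 lower (21.9%) at 6 h, and 4828 genes (53.2%) had an unadjusted p below 0.05. Of the 4191, 335 rose and 175 fell by 2-fold or more, and 45 rose and 25 fell by 4-fold or more. With all 6 libraries kept and a 2-level term for the libraries standing apart, the count was 3170 (34.6%), with 1729 higher (18.9%) and 1441 lower (15.7%). The biological coefficient of variation was 0.301 for 3 against 3 and 0.058 for 2 against 2, and the small value rests on pairs whose likeness may be technical. Without a threshold, 1246 genes (13.6%) were higher in every 6 h library than in any 3 h library and 1029 (11.2%) were lower, 24.9% of the genes tested in all.

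The 2 libraries left out carry the labels of the same interval and were not part of the 2-against-2 test. Of 4183 genes called in the 2-against-2 comparison and tested in both, 3432 (82.0%) differed in the same direction between 6 h replicate 1 and 3 h replicate 3, and 751 in the opposite one. For genes that fell by 2-fold or more the share was 87.6% (149 of 170), for genes that rose by 2-fold or more 85.5% (284 of 332), and for all 9047 genes in both 71.2%. Across genes, which are not independent replicates, the log2 differences had r = 0.513 over all genes. The median size was smaller in the separate libraries, -0.72 against -1.31 log2 for the genes that fell by 2-fold or more and 0.54 against 1.31 for those that rose.

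**Figure D2:**
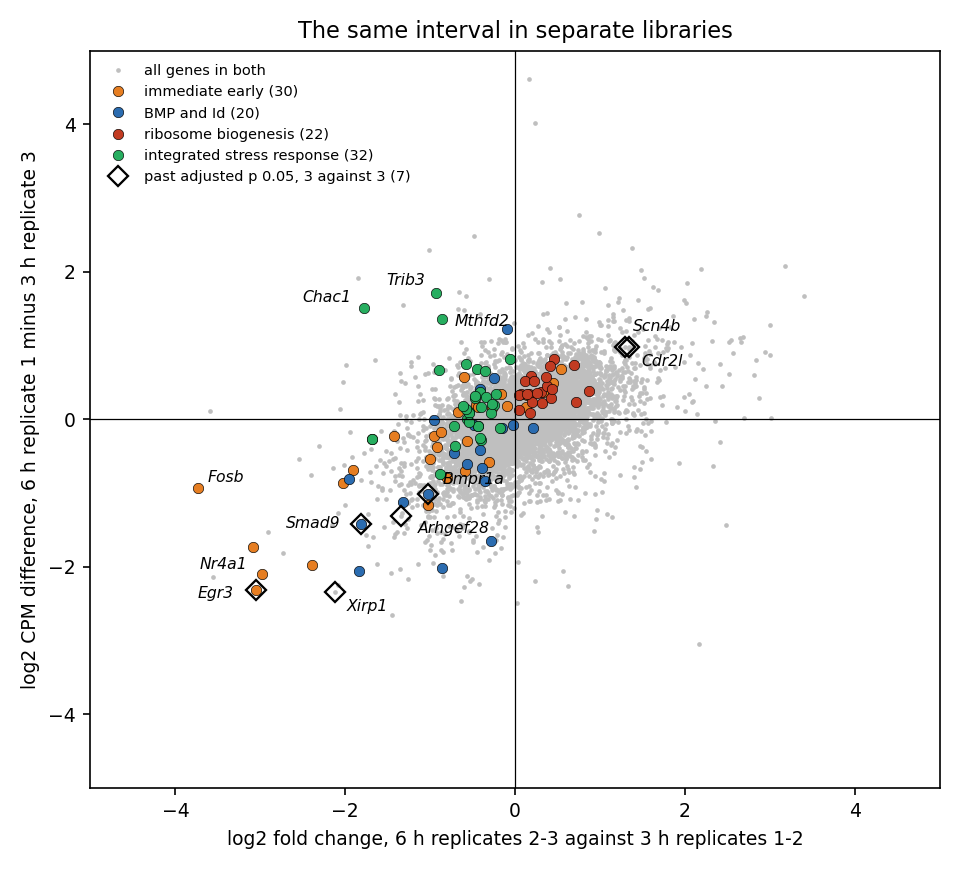
Each grey point is 1 of 9047 genes: log2 fold change of 6 h replicates 2 and 3 against 3 h replicates 1 and 2 (x axis) against the log2 CPM difference of 6 h replicate 1 minus 3 h replicate 3 (y axis), with 1 gene outside the axes. Coloured points are members of 4 gene lists and open diamonds the 7 genes past adjusted p 0.05 in all 6 libraries, with all ribosome biogenesis genes above 0 on the y axis and many integrated stress response genes left of 0 on the x axis but above 0 on the y axis.

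For the gene lists below, a share near that over all genes (without overlap 13.6% higher and 11.2% lower; in 2 against 2 24.3% higher and 21.9% lower) is no result about the list. The sign ± marks the standard error of a log2 fold change, and for a level the SD over 3 libraries (n = 3).

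Immediate early genes were more often lower at 6 h. Of 30 tested, 1 fell in all 6 libraries (Egr3), 11 were lower in every 6 h library than in any 3 h library (without overlap) and 2 were higher. The median log2 fold change of the list was -0.65, against -0.001 over all genes tested. In the 2-against-2 comparison 23 fell and 3 rose (median -0.74). In the separate libraries 18 were lower and 12 higher (median -0.25). The mean level of the list was 7.1, 7.12 and 6.06 log2 CPM in 3 h replicates 1, 2 and 3 and 5.65, 6.11 and 6.04 in 6 h replicates 1, 2 and 3, against 4.45 to 4.53 in controls.

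Fosb, an AP-1 subunit, was at 72.9, 68.3 and 10.8 CPM at 3 h and 5.56, 5.18 and 5.09 at 6 h. The 3 h replicate 3 value lay closer to the 6 h libraries than to the other 3 h libraries, and the test missed the threshold (log2 fold change -3.22 ± 0.68, adjusted p = 0.0953). Fosb fell in 2 against 2 (log2 fold change -3.74 ± 0.14, adjusted p = 5.24e-18). Arc, a synaptic immediate early gene, was at 49.9, 52.3 and 22.03 CPM at 3 h and 6.50, 4.88 and 6.91 at 6 h (log2 fold change -2.73 ± 0.36, adjusted p = 0.0616). Nr4a1, an orphan nuclear receptor, was at 402, 355 and 55.0 CPM at 3 h and 12.8, 42.8 and 50.8 at 6 h (log2 fold change -2.90 ± 0.82, adjusted p = 0.146), and its 3 h replicate 3 lay just above the highest 6 h library. Egr4 was low in all of them, at 1.46, 2.73 and 1.56 CPM at 3 h and 0.257, 0.406 and 0.340 at 6 h (log2 fold change -2.45 ± 0.53, adjusted p = 0.0991), and Egr2 was at 92.7, 97.2 and 33.0 CPM at 3 h and 20.4, 25.5 and 23.8 at 6 h (log2 fold change -1.64 ± 0.39, adjusted p = 0.113).

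Klf10, a zinc finger repressor, was at 330.4, 312 and 165 CPM at 3 h and 90.1, 80.0 and 73.6 at 6 h (log2 fold change -1.69 ± 0.27, adjusted p = 0.0634). Atf3 and Nr4a2 overlapped between groups, with 3 h replicate 3 far below the other 3 h libraries. Atf3, a stress-induced bZIP factor, was at 392, 382 and 120.3 CPM at 3 h and 99.9, 113 and 122 at 6 h. Nr4a2, an orphan nuclear receptor needed for midbrain dopaminergic neurons, was at 42.7, 46.3 and 7.25 CPM at 3 h and 6.16, 18.0 and 14.0 at 6 h. For Nr4a2 the log2 fold change was -1.30 (adjusted p = 0.398) in all 6 libraries and -1.43 (adjusted p = 2.1e-09) in 2 against 2, and controls were at 6.24 ± 1.39 CPM.

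Other early genes differed in direction. Fos, already down from 122 ± 43.2 CPM at 1.5 h, was at 26.8, 24.7 and 19.1 CPM at 3 h and 21.4, 24.7 and 30.4 at 6 h (log2 fold change 0.14 ± 0.20, adjusted p = 0.783). Egr1 was at 386, 359 and 129.8 CPM at 3 h and 192, 242 and 237 at 6 h. It was lower at 6 h in 2 against 2 (log2 fold change -0.60 ± 0.06, adjusted p = 1.62e-08) and higher in the separate libraries by 0.57 log2. Fosl1 was at 703, 716 and 307 CPM at 3 h and 341, 569 and 572 at 6 h (log2 fold change -0.19 ± 0.36, adjusted p = 0.852; 2 against 2, log2 fold change -0.28 ± 0.06, adjusted p = 0.000563). Myc, which drives growth and ribosome synthesis, was at 131, 139.9 and 117 CPM at 3 h and 152, 169.8 and 162 at 6 h. Every 6 h library was above every 3 h library (log2 fold change 0.35 ± 0.11, adjusted p = 0.18), Myc rose in 2 against 2 (log2 fold change 0.33 ± 0.07, adjusted p = 0.000434), and controls were at 63.8 ± 0.716 CPM. Ier3 was likewise without overlap, at 489, 482 and 463 CPM at 3 h and 579, 534 and 506 at 6 h (log2 fold change 0.20 ± 0.13, adjusted p = 0.465).

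The cyclic AMP response element TGACGTCA was found in the promoter windows of 5 of the 20 immediate early genes with a window (25%): Jund, Ier2, Btg2, Maff and Dusp1. It was found in 1.91% of all windows and in 2.77% of those of genes tested. This motif was picked from 6 after the counts were seen. Of the same 20 windows, 0 hold the AP-1 motif TGAGTCA, 4 hold CACGTG (20%), 14 hold GCGTG (70%), 1 holds CACGTC (5%) and 0 hold TGATGCAA, against 3.63%, 9.03%, 49.2%, 8.93% and 0.568% of the windows of genes tested. Of these 5 genes, Jund (339, 358 and 208 CPM at 3 h and 159, 183 and 177 at 6 h) and Btg2 (94.5, 93.5 and 60.7 CPM at 3 h and 52.0, 46.2 and 48.1 at 6 h) were lower in every 6 h library. Ier2, Maff and Dusp1 overlapped between groups. Over the whole immediate early list, 11 of 30 genes were lower without overlap. Whether the motif goes with the fall was not tested.

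Feedback inhibitors and ligands of ERK signalling were split. Of 17 ERK feedback genes tested, none passed the test in all 6 libraries, 3 were lower and 1 higher without overlap, and the median was -0.16. Of these genes 10 fell and 3 rose in 2 against 2. Dusp4, a nuclear phosphatase of ERK, was at 176, 163 and 148 CPM at 3 h and 34.9, 62.4 and 57.9 at 6 h (log2 fold change -1.62 ± 0.22, adjusted p = 0.0616), against 12.2 ± 0.430 CPM in controls. Dusp5 overlapped, at 529.5, 562 and 210.1 CPM at 3 h and 156, 240 and 245 at 6 h (log2 fold change -0.99 ± 0.38, adjusted p = 0.248; 2 against 2, log2 fold change -1.13 ± 0.06, adjusted p = 3.04e-14). Dusp6, the cytoplasmic ERK phosphatase, differed less, at 262, 258 and 224 CPM at 3 h and 217, 232 and 215 at 6 h (log2 fold change -0.14 ± 0.11, adjusted p = 0.612). Errfi1 and Spry4, inhibitors of receptor tyrosine kinase signalling, were lower without overlap, with log2 fold changes of -0.90 ± 0.23 (adjusted p = 0.123) and -0.53 ± 0.19 (adjusted p = 0.228).

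Among 29 growth factors and cytokines, none passed in all 6 libraries, and 3 were lower and 2 higher without overlap (median -0.23). Of the ligands 15 fell and 4 rose in 2 against 2, and in the separate libraries 14 were higher and 15 lower. Hbegf, a ligand of the EGF receptor, was at 1064, 1135 and 1066 CPM at 3 h and 811, 854 and 796 at 6 h (log2 fold change -0.38 ± 0.13, adjusted p = 0.217), far above controls at 111 ± 14.2 CPM. Vegfa and Cntf were lower without overlap. Vegfa, an angiogenic factor, was at 89.5, 92.6 and 98.1 CPM at 3 h and 60.1, 58.5 and 52.8 at 6 h (log2 fold change -0.68 ± 0.11, adjusted p = 0.0681). Cntf was at 57.2, 50.6 and 43.7 CPM at 3 h and 34.7, 30.0 and 33.7 at 6 h (log2 fold change -0.59 ± 0.14, adjusted p = 0.113). Lif, a cytokine of the interleukin 6 family, overlapped at 1090, 1086 and 658 CPM at 3 h and 867, 689 and 676 at 6 h, with -0.63 log2 in 2 against 2 and 0.40 in the separate libraries. Gdf15 overlapped as well, at 924, 958 and 344 CPM at 3 h and 397, 598 and 556 at 6 h (log2 fold change -0.49 ± 0.39, adjusted p = 0.586). Il6 was higher without overlap, at 10.6, 14.9 and 6.43 CPM at 3 h and 19.8, 18.6 and 24.2 at 6 h (log2 fold change 1.00 ± 0.32, adjusted p = 0.18). Csf1, the growth factor of microglia and macrophages, was at 1976, 2070 and 1491 CPM at 3 h and 1706, 2910 and 2749 at 6 h (log2 fold change 0.44 ± 0.25, adjusted p = 0.435).

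BMP pathway genes were lower at 6 h as a group in all 3 comparisons. Of 20 tested, 2 fell in all 6 libraries (Smad9 and Bmpr1a), 9 were lower without overlap and none was higher, with a median of -0.53. In 2 against 2, 15 fell and none rose (median -0.45), and 17 were lower and 3 higher in the separate libraries (median -0.53). The mean level was 5.27, 5.17 and 4.56 log2 CPM in 3 h replicates 1 to 3 and 4.0, 4.5 and 4.53 in 6 h replicates 1 to 3.

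Other receptors, effectors and antagonists lay lower by differing amounts, short of the threshold in all 6 libraries. Bmpr2, the type II receptor, was at 144, 151 and 155 CPM at 3 h and 97.7, 111 and 107 at 6 h (log2 fold change -0.48 ± 0.10, adjusted p = 0.102). Smad1 was at 130.4, 133 and 87.0 CPM at 3 h and 57.2, 88.8 and 84.2 at 6 h, with overlap (log2 fold change -0.58 ± 0.22, adjusted p = 0.253; 2 against 2, log2 fold change -0.57 ± 0.08, adjusted p = 1.04e-06). Nog, a secreted BMP antagonist, was at 9.25, 6.55 and 3.31 CPM at 3 h and 1.80, 1.52 and 2.49 at 6 h (log2 fold change -1.68 ± 0.46, adjusted p = 0.143). Bmp6, a ligand, was at 376, 369 and 211 CPM at 3 h and 194, 322 and 329.6 at 6 h with overlap (log2 fold change -0.15 ± 0.29, adjusted p = 0.856, and 0.07 without 6 h replicate 1). Atoh8, a bHLH factor that responds to BMP, was at 14.2, 11.5 and 4.498 CPM at 3 h and 0.941, 2.74 and 4.30 at 6 h (log2 fold change -1.89 ± 0.64, adjusted p = 0.201), against 73.2 ± 7.04 CPM in controls.

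The Id genes did not move alike. Id4 and Id2 were lower in every 6 h library. Id4 was at 72.7, 64.6 and 37.5 CPM at 3 h and 17.1, 24.6 and 29.0 at 6 h (log2 fold change -1.28 ± 0.29, adjusted p = 0.108). Id2 was at 47.0, 41.6 and 28.6 CPM at 3 h and 28.4, 23.3 and 21.3 at 6 h (log2 fold change -0.65 ± 0.22, adjusted p = 0.2). Id1 was at 66.2, 51.5 and 41.8 CPM at 3 h and 55.4, 46.0 and 40.2 at 6 h (log2 fold change -0.14 ± 0.20, adjusted p = 0.802). Id3 was at 119.7, 116 and 78.4 CPM at 3 h and 116, 92.5 and 101 at 6 h (log2 fold change 0.01 ± 0.18, adjusted p = 0.983), and both genes had overlap. Id1 fell in 2 against 2 (log2 fold change -0.41 ± 0.12, adjusted p = 0.00502) and so did Id3 (log2 fold change -0.25 ± 0.08, adjusted p = 0.0121). In the separate libraries Id1 was higher by 0.41 and Id3 by 0.56 log2. Against controls at 160.1 ± 3.27 CPM (Id1) and 478 ± 32.3 CPM (Id3), both were lower in every 6 h library.

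**Figure D3:**
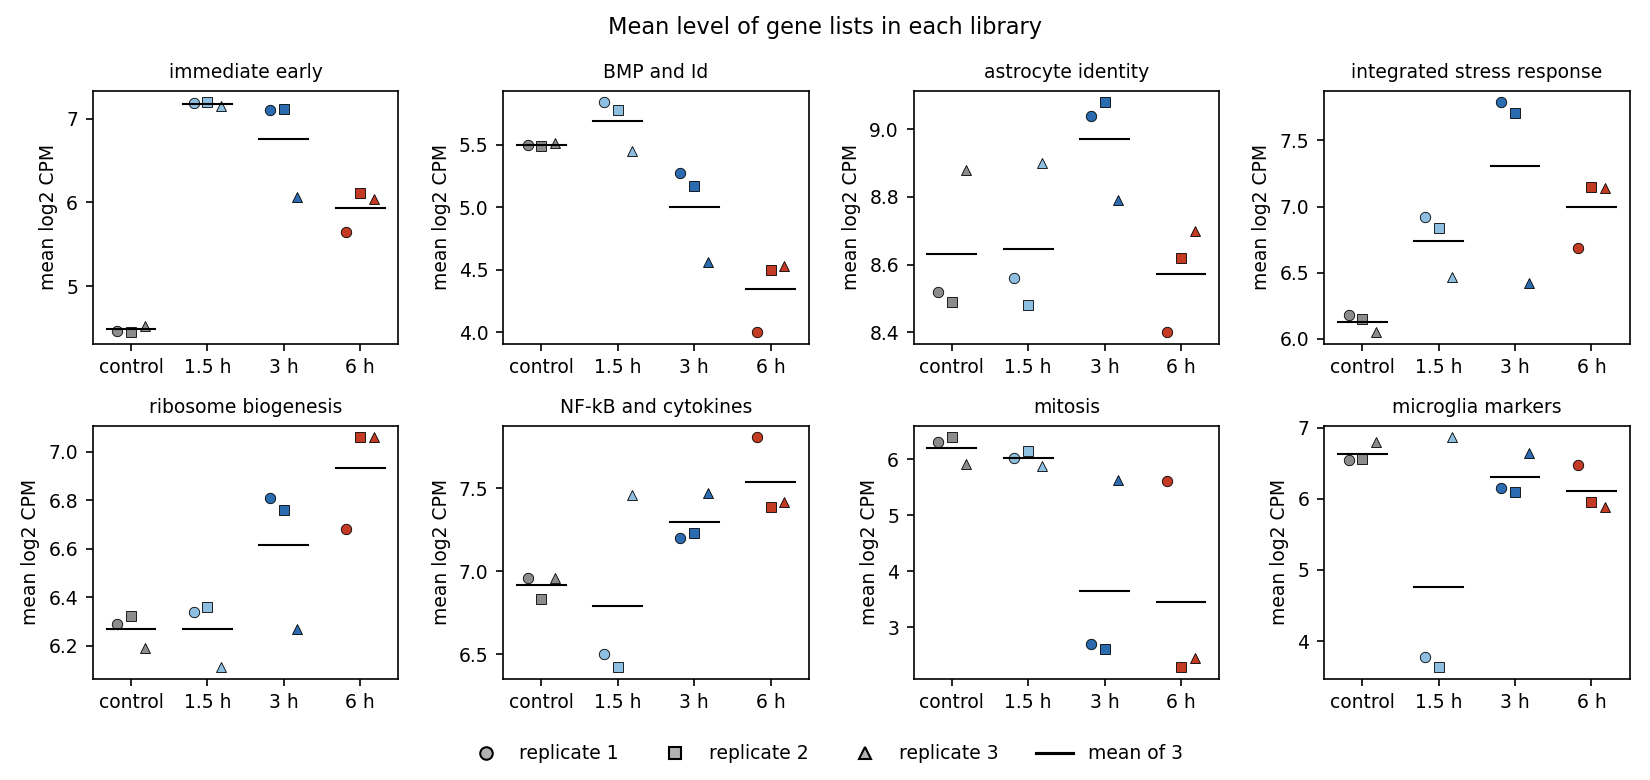
Mean log2 CPM of the tested members of 8 gene lists in each of the 12 libraries (colours and symbols as for single genes; bar, mean of 3; each panel has its own y axis). BMP and Id genes and immediate early genes are lower at 6 h than in 3 h replicates 1 and 2, ribosome biogenesis genes are higher in 6 h replicates 2 and 3 than in 3 h replicates 1 and 2 and higher in 6 h replicate 1 than in 3 h replicate 3, and the mitosis panel shows 3 h replicate 3 and 6 h replicate 1 near the control level and the other 4 libraries well below it.

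Ribosome biogenesis genes were higher at 6 h in both sets of libraries. Of 22 tested, 6 were higher without overlap and none lower (median 0.30). In 2 against 2, 15 rose and none fell (median 0.28), and 22 of 22 were higher in the separate libraries (median 0.36). None passed the test in all 6 libraries. Nle1, an assembly factor of the large subunit, was at 17.9, 15.7 and 19.2 CPM at 3 h and 25.1, 28.0 and 31.8 at 6 h (log2 fold change 0.71 ± 0.17, adjusted p = 0.111). Wdr43, of the small subunit processome, was at 135, 134 and 124 CPM at 3 h and 164, 179.5 and 173 at 6 h (log2 fold change 0.43 ± 0.10, adjusted p = 0.11). Nop2, an rRNA methyltransferase, was at 102, 97.8 and 64.4 CPM at 3 h and 114, 138 and 129.9 at 6 h (log2 fold change 0.56 ± 0.19, adjusted p = 0.199). Nop56, a core protein of box C/D ribonucleoproteins, overlapped, at 182, 170.3 and 106 CPM at 3 h and 175, 285 and 269 at 6 h (log2 fold change 0.70 ± 0.26, adjusted p = 0.235; 2 against 2, log2 fold change 0.69 ± 0.07, adjusted p = 2.35e-09). Of the abundant members, Ddx21 was at 426, 404 and 259.6 CPM at 3 h and 284, 429 and 404 at 6 h (log2 fold change 0.07 ± 0.24, adjusted p = 0.925). Mybbp1a was at 341, 325 and 248 CPM at 3 h and 320.2, 403 and 399.9 at 6 h (log2 fold change 0.33 ± 0.17, adjusted p = 0.377).

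Targets of NF-kB, the transcription factor of inflammatory signalling, were split, with more higher than lower. Of 29 tested, none passed in all 6 libraries, and 9 were higher and 1 lower without overlap (median 0.20). In 2 against 2, 11 of them rose and 7 fell, and 23 were higher and 6 lower in the separate libraries. The inhibitor Nfkbia was at 221, 249.8 and 419 CPM at 3 h and 539.7, 438 and 473 at 6 h (log2 fold change 0.73 ± 0.27, adjusted p = 0.233). The subunit Nfkb2 was at 202, 187 and 194 CPM at 3 h and 334, 264 and 288 at 6 h (log2 fold change 0.63 ± 0.13, adjusted p = 0.0937). Cxcl2, a neutrophil chemokine, was at 98.5, 98.5 and 107 CPM at 3 h and 235, 178 and 172 at 6 h (log2 fold change 0.97 ± 0.16, adjusted p = 0.0659). Tnf was at 78.4, 85.5 and 139 CPM at 3 h and 186, 147 and 145 at 6 h (log2 fold change 0.68 ± 0.25, adjusted p = 0.235). Traf1, an adaptor of TNF receptors, was at 4.28, 3.93 and 8.35 CPM at 3 h and 18.1, 11.8 and 13.8 at 6 h (log2 fold change 1.42 ± 0.37, adjusted p = 0.132). The abundant chemokine gene Ccl2 overlapped, at 2125, 2069 and 2323 CPM at 3 h and 3425, 2224 and 2166 at 6 h (log2 fold change 0.29 ± 0.23, adjusted p = 0.593), and Rel was lower without overlap, at 20.7, 21.3 and 14.2 CPM at 3 h and 9.33, 12.5 and 10.9 at 6 h (log2 fold change -0.75 ± 0.23, adjusted p = 0.165).

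Tnf and Il1b are also made by microglia, and the part of these cells in the levels was not tested. Il1b was at 76.7, 75.1 and 289.7 CPM at 3 h and 489, 119.9 and 119.8 at 6 h, highest in the libraries that stand apart (log2 fold change 0.75 ± 0.77, adjusted p = 0.695). The 21 microglia markers summed to 3133, 3114 and 3929 CPM in 3 h replicates 1 to 3 and 3627, 2813 and 2732 in 6 h replicates 1 to 3, without a rise at 6 h. Of the 21, 3 were lower and none higher without overlap. Csf1r, the receptor of Csf1 and a microglia marker, was at 218, 210.5 and 345 CPM at 3 h and 210.3, 149.8 and 135 at 6 h (log2 fold change -0.62 ± 0.27, adjusted p = 0.295; 2 against 2, log2 fold change -0.55 ± 0.07, adjusted p = 3.63e-07). With the mean level of the microglia markers as a covariate, the test in all 6 libraries called 3642 genes, 1974 higher and 1668 lower. In these libraries that level moves with the 2 libraries that stand apart.

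The level of interferon response genes differed between the 2 sets of libraries. Their mean level over 23 tested genes was 3.78, 3.68 and 5.35 log2 CPM in 3 h replicates 1 to 3 and 5.42, 4.07 and 4.15 in 6 h replicates 1 to 3. Of the 23, 2 were higher and 0 lower without overlap, and 0 passed in all 6 libraries. In 2 against 2, 8 of 22 rose and 2 fell (median 0.23). In the separate libraries 13 were higher and 10 lower (median 0.1). Oasl, an antiviral gene, was above controls in every library of both groups. It was at 84.2, 80.2 and 120.3 CPM at 3 h and 255, 261 and 269.8 at 6 h (log2 fold change 1.49 ± 0.19, adjusted p = 0.0547), with controls at 15.6 ± 2.002 CPM.

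Genes of the integrated stress response, driven by the factor Atf4, went in opposite directions in the 2 sets of libraries. Of 32 tested, 29 fell and none rose in 2 against 2 (median -0.47), whereas 22 were higher and 10 lower in the separate libraries (median 0.18). In all 6 libraries none passed the test and 1 was lower without overlap. Chac1, an enzyme that degrades glutathione, was at 28.1, 24.98 and 11.3 CPM at 3 h and 32.4, 6.71 and 8.49 at 6 h. It fell in 2 against 2 (log2 fold change -1.77 ± 0.18, adjusted p = 3.85e-09) and differed by 1.51 log2 in the separate libraries. Sesn2, a stress-induced inhibitor of mTORC1, was at 186, 166 and 73.2 CPM at 3 h and 117, 87.9 and 97.0 at 6 h. The cystine transporter genes Slc3a2 and Slc7a11 overlapped. Slc3a2 was at 4739, 4342 and 1215 CPM at 3 h and 1146, 3376 and 3184 at 6 h, and Slc7a11 was at 3001, 2548 and 978 CPM at 3 h and 819, 2090 and 1954 at 6 h. The member without overlap was Ddit4, an inhibitor of mTORC1, at 61.4, 68.1 and 70.0 CPM at 3 h and 41.7, 36.2 and 32.04 at 6 h (log2 fold change -0.83 ± 0.14, adjusted p = 0.071).

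Clock genes split in direction. Of 17 tested, 4 were higher and 4 lower without overlap and none passed in all 6 libraries (median -0.35). Of the 17, 3 rose and 8 fell in 2 against 2. On the lower side were repressors. Bhlhe40 was at 506, 498 and 270 CPM at 3 h and 152, 139 and 140.3 at 6 h (log2 fold change -1.53 ± 0.25, adjusted p = 0.0659), against 47.7 ± 10.9 CPM in controls. Nr1d2 was at 66.5, 70.8 and 64.6 CPM at 3 h and 38.0, 50.1 and 44.0 at 6 h (log2 fold change -0.58 ± 0.13, adjusted p = 0.105). Per1 overlapped, at 175, 168 and 42.9 CPM at 3 h and 27.9, 43.7 and 38.7 at 6 h, with 3 h replicate 3 inside the 6 h range (log2 fold change -1.77 ± 0.51, adjusted p = 0.152; 2 against 2, log2 fold change -2.02 ± 0.09, adjusted p = 3.78e-17). On the higher side was Cry1, a repressor too, at 42.4, 49.2 and 43.9 CPM at 3 h and 61.7, 69.3 and 73.6 at 6 h (log2 fold change 0.62 ± 0.12, adjusted p = 0.0826). Npas2, a partner of Bmal1, was higher as well, at 4.09, 4.91 and 3.67 CPM at 3 h and 9.50, 8.74 and 10.9 at 6 h (log2 fold change 1.23 ± 0.25, adjusted p = 0.0932). Tef was at 44.0, 47.7 and 58.7 CPM at 3 h and 72.1, 79.8 and 78.0 at 6 h (log2 fold change 0.64 ± 0.15, adjusted p = 0.108). Cry2 overlapped, at 183, 189 and 106 CPM at 3 h and 83.7, 125 and 139.7 at 6 h (log2 fold change -0.42 ± 0.27, adjusted p = 0.488).

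**Figure D4:**
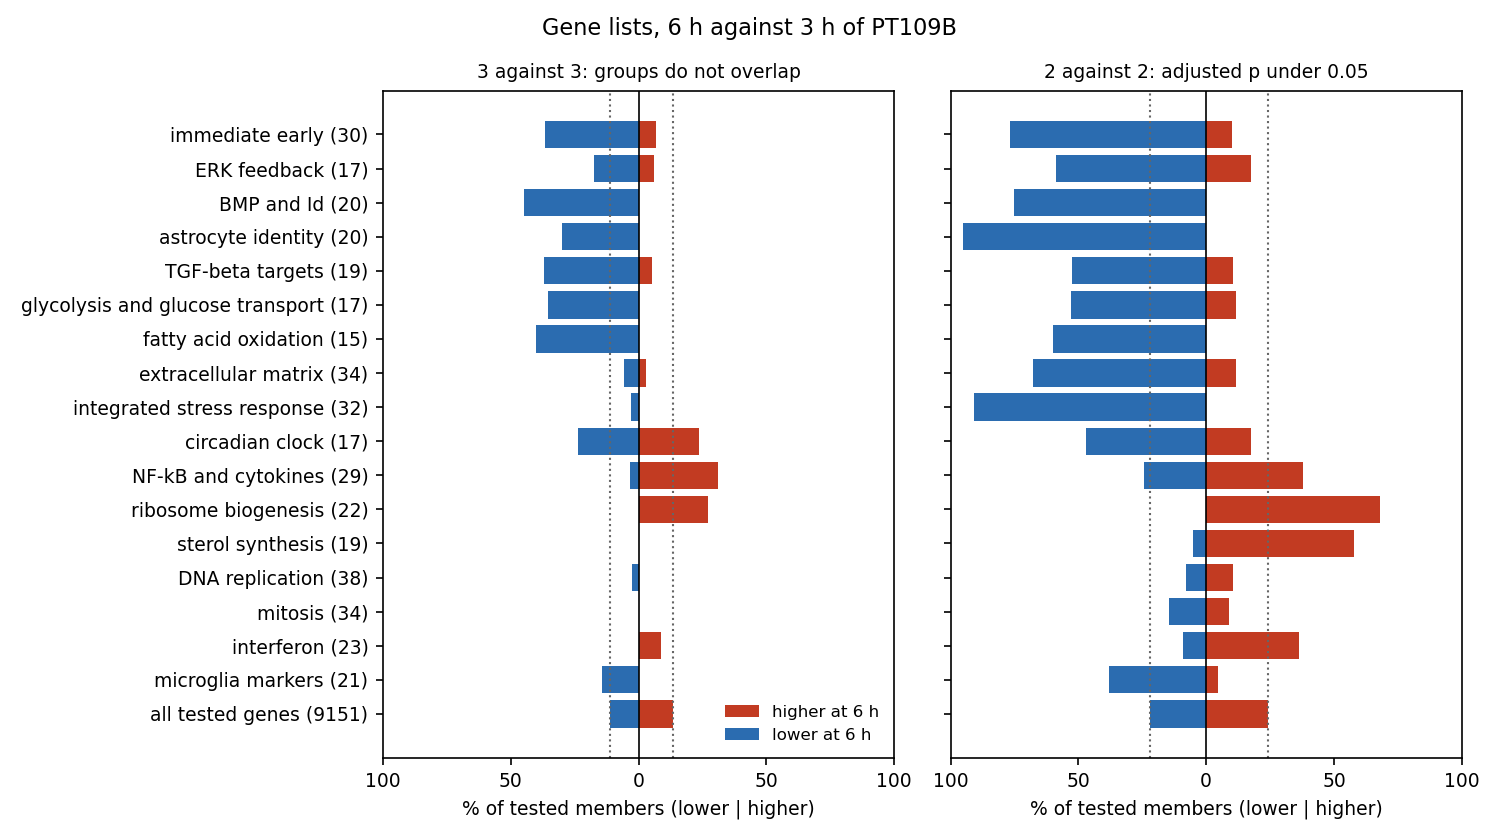
Percentage of tested members (number in brackets) of 17 gene lists, and of all genes tested, that were lower (blue, left) or higher (red, right) at 6 h: left panel, 3 h and 6 h libraries do not overlap; right panel, adjusted p under 0.05 in 2 against 2. Dotted lines mark the share over all genes tested, 11.2% lower and 13.6% higher on the left; BMP and Id genes reach 9 of 20 lower, and DNA replication and mitosis genes stay under the dotted lines in both panels.

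Genes of astrocyte identity were lower at 6 h than at 3 h. Of 20 tested, 6 were lower and none higher without overlap (median -0.31), and none passed in all 6 libraries. In 2 against 2, 19 fell and none rose (median -0.32), and 19 were lower in the separate libraries (median -0.26). The mean level of the list was 9.04, 9.08 and 8.79 log2 CPM in 3 h replicates 1, 2 and 3. In 6 h replicates 1, 2 and 3 it was 8.4, 8.62 and 8.7, against 8.49 to 8.88 in controls. Sox9, which specifies the astrocyte lineage, was at 250.4, 265 and 251 CPM at 3 h and 142, 187 and 173 at 6 h (log2 fold change -0.59 ± 0.13, adjusted p = 0.107), and at 6 h every library was still above the controls' mean of 120.4 ± 11.2 CPM. Nfib, a gliogenic factor, was at 61.5, 67.9 and 72.7 CPM at 3 h and 43.0, 47.6 and 46.1 at 6 h (log2 fold change -0.54 ± 0.12, adjusted p = 0.104), against 78.3 ± 7.61 CPM in controls, and Fgfr3 at 346, 367 and 266 CPM at 3 h and 157, 214 and 215 at 6 h (log2 fold change -0.71 ± 0.18, adjusted p = 0.124). Glul, the glutamine synthetase gene, was at 2957, 3028 and 4197 CPM at 3 h and 2926, 2165 and 2472 at 6 h (log2 fold change -0.40 ± 0.23, adjusted p = 0.43).

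Gfap and Aqp4, hallmark genes of mature astrocytes, overlapped, with the libraries that stand apart higher in both groups. Gfap, the intermediate filament gene, was at 1327, 1513 and 2455 CPM at 3 h and 1558, 924 and 1116 at 6 h (log2 fold change -0.53 ± 0.32, adjusted p = 0.45; 2 against 2, log2 fold change -0.44 ± 0.08, adjusted p = 0.000316). Aqp4, the water channel gene, was at 876, 1008 and 1613 CPM at 3 h and 1160, 645 and 816 at 6 h (log2 fold change -0.39 ± 0.32, adjusted p = 0.605). In the separate libraries the log2 difference, 6 h minus 3 h, was -0.66 for Gfap and -0.48 for Aqp4. Sparcl1, the most abundant list member, was at 4337, 4236 and 2187 CPM at 3 h and 1816, 3120 and 3466 at 6 h (log2 fold change -0.33 ± 0.35, adjusted p = 0.709).

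Genes of neuronal fate showed no common direction. Of 14 proneural factors tested, 1 was higher and 3 lower without overlap. Of 23 neuronal structure genes 2 were higher and 1 lower, and of 9 dopaminergic genes none was higher and 1 lower. In 2 against 2, 3 proneural factors rose and 3 fell, 5 neuronal structure genes rose and 8 fell, and 0 dopaminergic genes rose and 2 fell. Of 8 neuron markers 3 were higher without overlap and none lower. In 2 against 2, 3 of 7 neuron markers rose and 2 fell, and in the separate libraries 3 were higher and 5 lower. The neuron markers summed to 821.3, 732.1 and 276.9 CPM in 3 h replicates 1 to 3. At 6 h the sums were 208.4, 584.8 and 555.8 CPM, lower in both sets of libraries, with 262.1 to 321.7 CPM in controls. None of the genes on these lists passed in all 6 libraries. Pou3f2, a factor used to convert cells to neurons, was at 3.89, 4.69 and 8.72 CPM at 3 h and 7.79, 8.43 and 7.93 at 6 h (log2 fold change 0.50 ± 0.36, adjusted p = 0.55; 2 against 2, log2 fold change 0.97 ± 0.27, adjusted p = 0.00423), below controls at 25.2 ± 3.15 CPM. Olig2, of the oligodendrocyte lineage and ventral progenitors, was higher without overlap, at 86.2, 90.3 and 35.7 CPM at 3 h and 92.1, 128 and 129 at 6 h (log2 fold change 0.75 ± 0.34, adjusted p = 0.326). Tcf4, the common partner of proneural factors, was lower, at 111, 107 and 90.4 CPM at 3 h and 62.5, 71.2 and 68.0 at 6 h (log2 fold change -0.58 ± 0.12, adjusted p = 0.0883). Map2, a dendritic microtubule protein, was lower without overlap, at 109, 109.6 and 100.5 CPM at 3 h and 58.6, 90.0 and 87.8 at 6 h (log2 fold change -0.41 ± 0.18, adjusted p = 0.295), and Tubb3 overlapped, at 181, 165 and 72.0 CPM at 3 h and 109, 186 and 181 at 6 h (log2 fold change 0.22 ± 0.36, adjusted p = 0.827). Gad1, a GABA synthesis enzyme, was higher, at 16.4, 17.4 and 23.3 CPM at 3 h and 26.9, 29.9 and 33.6 at 6 h (log2 fold change 0.69 ± 0.20, adjusted p = 0.151). Dcx did not pass the filter on low counts.

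The progenitor factor Sox2 and the repressors of neuronal fate Ptbp1 and Rest were nearly level. Sox2 was at 67.0, 66.7 and 60.03 CPM at 3 h and 64.0, 70.0 and 69.1 at 6 h (log2 fold change 0.10 ± 0.10, adjusted p = 0.71), against 175 ± 2.16 CPM in controls. Ptbp1 was at 583, 558 and 535 CPM at 3 h and 588, 539 and 541 at 6 h (log2 fold change 0.02 ± 0.13, adjusted p = 0.954). Rest was at 75.0, 74.3 and 87.8 CPM at 3 h and 68.1, 77.4 and 72.0 at 6 h (log2 fold change -0.10 ± 0.12, adjusted p = 0.763). The Notch target Hes1 was at 20.8, 22.04 and 8.26 CPM at 3 h and 17.7, 20.2 and 16.4 at 6 h (log2 fold change 0.12 ± 0.36, adjusted p = 0.909). Hes1 went opposite ways in the 2 sets of libraries. It was lower in 2 against 2 (log2 fold change -0.18, adjusted p = 0.341) and higher in the separate libraries.

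Genes of fuel use were more often lower than higher. Of 17 glycolysis and glucose transport genes 6 were lower and none higher without overlap (median -0.16), and in 2 against 2, 9 fell and 2 rose. Of 15 fatty acid oxidation genes 6 were lower and none higher (median -0.26), and in 2 against 2, 9 fell and none rose. The glucose transporter gene Slc2a1 was at 1353, 1254 and 940.4 CPM at 3 h and 606, 859 and 838 at 6 h (log2 fold change -0.59 ± 0.21, adjusted p = 0.217). Pfkfb3, an activator of glycolysis, was at 655, 624 and 401 CPM at 3 h and 305, 350 and 338 at 6 h (log2 fold change -0.73 ± 0.20, adjusted p = 0.144). Cpt1a, which admits fatty acids to mitochondria, was at 723, 678 and 586 CPM at 3 h and 362, 555 and 499 at 6 h (log2 fold change -0.46 ± 0.19, adjusted p = 0.277). Pdk4, an inhibitor of pyruvate dehydrogenase, was near the filter, at 1.75, 2.07 and 2.02 CPM at 3 h and 0.941, 1.42 and 1.02 at 6 h (log2 fold change -0.76 ± 0.40, adjusted p = 0.392), against 19.8 ± 1.86 CPM in controls. Angptl4, an inhibitor of lipoprotein lipase, was at 37.7, 33.8 and 62.2 CPM at 3 h and 37.7, 10.1 and 11.3 at 6 h (log2 fold change -1.14 ± 0.56, adjusted p = 0.354; 2 against 2, log2 fold change -1.71 ± 0.15, adjusted p = 4.5e-10), against 308 ± 17.6 CPM.

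Sterol synthesis genes went the other way with small steps. Of 19 tested, 11 rose and 1 fell in 2 against 2 (median 0.29), with 14 higher and 5 lower in the separate libraries (median 0.13), and none was without overlap. Msmo1, a sterol demethylase, was at 819, 898 and 1191 CPM at 3 h and 1280, 1178 and 1158 at 6 h (log2 fold change 0.34 ± 0.19, adjusted p = 0.429; 2 against 2, log2 fold change 0.48 ± 0.06, adjusted p = 6.84e-07).

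Extracellular matrix genes were lower by small steps. Of 34 tested, 23 fell and 4 rose in 2 against 2 (median -0.31) and 31 were lower in the separate libraries (median -0.16). The level itself differed between the 2 sets of libraries and only 2 were lower and 1 higher without overlap. Markers of fibroblasts and meningeal cells, which make matrix, summed to 2000, 2074 and 1446 CPM in 3 h replicates 1 to 3 and 1205, 1475 and 1580 in 6 h replicates 1 to 3. Of the 12 tested, 1 was lower without overlap, 4 fell and 1 rose in 2 against 2 (median -0.36), and 9 were lower and 3 higher in the separate libraries (median -0.26). Their part in the matrix values was not tested. Col1a1 was at 450.2, 434 and 478 CPM at 3 h and 406, 311 and 325 at 6 h (log2 fold change -0.36 ± 0.15, adjusted p = 0.289). Fn1, the fibronectin gene, showed the offset between sets, at 10070, 9844 and 3974 CPM at 3 h and 3607, 7744 and 7269 at 6 h (log2 fold change -0.33 ± 0.44, adjusted p = 0.781). Of 19 TGF-beta targets 7 were lower and 1 higher without overlap. Pmepa1 was at 40.2, 34.8 and 35.8 CPM at 3 h and 16.4, 20.7 and 21.3 at 6 h (log2 fold change -0.90 ± 0.15, adjusted p = 0.071). Smurf1, a ubiquitin ligase for Smads, was higher, at 112, 119 and 142 CPM at 3 h and 191, 199 and 198 at 6 h (log2 fold change 0.68 ± 0.13, adjusted p = 0.0805).

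The heat shock list had 1 of 14 members lower without overlap (median -0.25). In the 2-against-2 test 10 of the 14 fell and none rose, and in the separate libraries 10 were lower and 4 higher. Of 23 antioxidant genes 1 was lower and 1 higher without overlap (median -0.13). In the 2-against-2 test 11 of the 23 fell and 1 rose, and in the separate libraries 14 were lower and 9 higher. Hspa1a was at 424, 381 and 80.6 CPM at 3 h and 20.6, 130.1 and 124 at 6 h, with overlap (log2 fold change -1.66 ± 0.81, adjusted p = 0.355; 2 against 2, log2 fold change -1.62 ± 0.07, adjusted p = 3.9e-17). Hmox1, the haem oxygenase gene, was at 5197, 4423 and 1189 CPM at 3 h and 1389, 4297 and 3939 at 6 h (log2 fold change -0.13 ± 0.62, adjusted p = 0.941). Of 12 genes of the unfolded protein response of the endoplasmic reticulum 6 were lower without overlap. The chaperone gene Hsp90b1 was at 868, 873 and 847 CPM at 3 h and 693, 785 and 692 at 6 h (log2 fold change -0.23 ± 0.13, adjusted p = 0.443).

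For mitosis genes the libraries of a group differed more than the groups. Of 34 mitosis genes none was without overlap, 3 rose and 5 fell in 2 against 2, and 16 were higher and 18 lower in the separate libraries. Of 38 DNA replication genes 1 was lower without overlap (median -0.15). In 2 against 2, 4 of these rose and 3 fell (median -0.01), and 31 were lower and 7 higher in the separate libraries (median -0.19). Mki67, the proliferation marker, was at 15.4, 9.27 and 184 CPM at 3 h and 159, 9.24 and 9.74 at 6 h (log2 fold change -0.20 ± 1.47, adjusted p = 0.962), so that its spread inside each group was far larger than the difference between them. Mcm2, of the replicative helicase, was at 68.0, 70.2 and 87.2 CPM at 3 h and 77.7, 64.6 and 68.7 at 6 h (log2 fold change -0.07 ± 0.15, adjusted p = 0.877).

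Beside the 7 genes past the threshold, 10 genes in each direction had the smallest p without overlap among those that missed the threshold, with a mean of at least 2 CPM at 3 h or 6 h. Among those lower at 6 h, Tril, a Toll-like receptor co-factor, was at 152, 169 and 179 CPM at 3 h and 76.1, 75.7 and 82.5 at 6 h (log2 fold change -1.07 ± 0.12, adjusted p = 0.0519). Arc, described above, was another. Also lower were Arhgef4 (-1.03 ± 0.12 log2), Rnd1 (-1.74 ± 0.20), the retinoic acid receptor gene Rara (-1.10 ± 0.13) and the xenobiotic-metabolising Cyp1a1 (-1.01 ± 0.13). The remaining genes were Igsf11 (-0.76 ± 0.10), Sltm (-0.82 ± 0.11), the splicing factor gene Srsf6 (-0.86 ± 0.11) and the betaine and GABA transporter gene Slc6a12 (-1.18 ± 0.16). Their adjusted p lay between 0.0519 for Tril and 0.0616 for Slc6a12. Among those higher, the granulocyte growth factor gene Csf3 was at 14.1, 13.2 and 12.03 CPM at 3 h and 36.5, 30.6 and 31.1 at 6 h (log2 fold change 1.35 ± 0.16, adjusted p = 0.0519). Disp1, which releases Hedgehog ligands, was at 22.5, 29.4 and 30.3 CPM at 3 h and 64.1, 71.4 and 77.9 at 6 h (log2 fold change 1.40 ± 0.16, adjusted p = 0.0519). The others were Oasl, given above, the guanine nucleotide exchange factor gene Vav2 (1.09 ± 0.13), Iqgap2 (1.03 ± 0.12), Trim27 (0.80 ± 0.10), the adaptor gene Nck2 (1.09 ± 0.14), Helb (0.83 ± 0.11), Zfp64 (0.90 ± 0.12) and Rps6kc1 (0.98 ± 0.13).

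The largest changes of the 2-against-2 comparison, among genes that also had no overlap in all 6 libraries and a mean of at least 2 CPM at 3 h or 6 h, are named here by size. The 15 largest falls were Fosb, Ranbp3l, Arc, Egr3, Nr4a1, the bradykinin receptor gene Bdkrb1, Lmod1, Tmprss11f, RGD1564664, Irag1, the clock-controlled gene Noct, Xirp1, Fam222a, the nuclear receptor gene Nr5a2 and Klf10. Their log2 fold changes ran from -3.74 (Fosb) to -2.02 (Klf10). Ranbp3l was at 2.24, 3.27 and 1.38 CPM at 3 h and 0.171, 0.102 and 0.340 at 6 h (2 against 2, log2 fold change -3.56 ± 0.68, adjusted p = 9.69e-05). Lmod1, an actin nucleator of smooth muscle, was at 6.91, 4.15 and 3.76 CPM at 3 h and 0.941, 0.813 and 0.793 at 6 h (log2 fold change -2.73 ± 0.44, adjusted p = 1.19e-05). The 15 largest rises were AABR07071765.1, Cacna1i, Camk2b, Rtp3, Elfn1, Rundc3b, AABR07002868.1, Etnk2, Sypl2, Phf24, Cobl, Syt7, Tafa2, Sv2c and Slc4a8. Their log2 fold changes ran from 3.40 (Cacna1i) to 2.52 (Slc4a8) for all but AABR07071765.1. No fold is given for that gene because it had no counts in 3 h replicates 1 and 2.

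Levels of the rising genes were low at 3 h. Cacna1i, a T-type calcium channel gene, was at 0.779, 0.982 and 2.94 CPM at 3 h and 9.76, 10.5 and 7.70 at 6 h (2 against 2, log2 fold change 3.40 ± 0.37, adjusted p = 2.22e-08; all 6 libraries, adjusted p = 0.0987). Camk2b, a calcium-dependent kinase gene, was at 1.75, 2.51 and 10.4 CPM at 3 h and 25.5, 16.2 and 16.9 at 6 h (log2 fold change 3.00 ± 0.26, adjusted p = 2.35e-10), its 3 h replicate 3 being near its control level of 12.1 ± 3.36 CPM. Syt7, a calcium sensor of exocytosis, was at 0.389, 1.31 and 2.39 CPM at 3 h and 4.62, 4.47 and 5.21 at 6 h (log2 fold change 2.56 ± 0.47, adjusted p = 5.84e-05). Sv2c, a synaptic vesicle protein gene, was at 0.487, 2.84 and 2.39 CPM at 3 h and 3.77, 9.85 and 8.27 at 6 h (log2 fold change 2.52 ± 0.43, adjusted p = 0.000158). AABR07071765.1, which has no further name in the table, was at 1.56 CPM in 3 h replicate 3 and 3.94, 1.73 and 1.93 in the 6 h libraries.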

How the data were processed

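RNA-seq of 12 libraries was deposited as 1 table with, for each gene and library, an estimated count and an FPKM value made by the authors. Per the submitters' processing notes, StringTie 2.2.1 was among the tools. Aligner, genome build and annotation were not given in the sources used here. TRIzol extraction and a NEBNext Ultra kit were used, per the labels' protocols. The deposited counts are expected counts (9.486% of values, in 1343 of 9721 genes, are not whole) and were rounded.

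Libraries were grouped by the treatment time in their labels. The 6 libraries at 3 h and 6 h were fitted alone with edgeR 4.0.16 (R 4.3.3): filterByExpr, TMM scaling, robust quasi-likelihood F test, Benjamini-Hochberg adjustment over all 9151 genes kept, threshold 0.05. Standard errors were derived from the fold change and its F statistic. Levels in the text are CPM on a TMM scale over 12 libraries, on which 6 h against 3 h differs by -0.028 log2 from the scale of the fit. "Without overlap" means that every library of one group lies above every library of the other. The deposited FPKM values were used for 1 alternative (limma 3.58.1 on log2 values with a pseudocount of 1 or 0.1) and DESeq2 1.42.0 for another. On simulated counts with known changes, the 3-against-3 test recovered 21% of 2-fold and 70% of 4-fold changes. It made 4 false calls among 8865 unchanged genes (9065 genes tested). The 2-against-2 test recovered 81.8% and 99%, with 11 false calls among 8802 (9001 tested). The simulated libraries varied independently, with the spread that each fit had estimated. They lacked the shared deviation of 3 h replicate 3 and 6 h replicate 1. For 2 against 2 that spread came from pairs whose likeness may be technical. These rates therefore cannot check the calls made on the real libraries.

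Same-numbered libraries had correlations of deviations from their group means of -0.675, 0.617 and -0.675. These signs follow the 2 libraries that stand apart, which carry different replicate numbers. They cannot show whether same-numbered libraries share a culture. Genes named are those past the threshold; the 10 with the smallest p without overlap in each direction and the 15 largest changes without overlap in each direction of the 2-against-2 test, both with a mean of at least 2 CPM at 3 h or 6 h; a set of early, astrocyte and neuronal genes; and the most abundant members of the lists described. Further list members were named after their values were seen. Some genes that the rule names are not reported here. The 49 gene lists, the named set and the leaving out of 2 libraries were chosen with earlier results of these data known. The motif search covered both strands of RefSeq windows, matched by symbol for 7043 of 9151 tested genes. Besides TGACGTCA and the AP-1 motif TGAGTCA, the search covered CACGTG (held by 9.03% of the windows of tested genes), CACGTC (by 8.93%), GCGTG (by 49.2%) and TGATGCAA (by 0.568%). The table's only mapping of identifiers to symbols was used; 60 genes have no symbol. Intervals on CPM cover counting error only and none is printed; library totals were 9535513 to 12254968 counts.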

Additional observations from a re-analysis of the deposited data

How the results depend on the processing

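The count of 7 genes in all 6 libraries depended on the settings tried. It was 16 (6 higher) with RLE scaling, 4 (0 higher) with upper quartile scaling, 0 with library size only and 14 (6 higher) with no filter on low counts. With other tests it was 2 with limma-voom, 0 with limma-trend on log2(FPKM + 1) and 0 on log2(FPKM + 0.1), 3 without robust shrinkage and 609 (330 higher) with DESeq2. It was 384 (221 higher) with all 12 libraries in 1 fit, 3642 (1974 higher) with the microglia level as a covariate, 3170 (1729 higher) with the 2-level term and 4191 (2204 higher) without 3 h replicate 3 and 6 h replicate 1. The fit with the replicate number as a block called 0 genes (937 at an unadjusted p of 0.05). Whether the numbers pair cultures cannot be told from the labels. Leaving out 1 library at a time gave between 0 and 343 calls: 343 (218 higher) without 3 h replicate 3, 1 without 6 h replicate 1 and 0 without any other, each leaving 1 group with 2 libraries. Of alternatives chosen after seeing the data, the 2-against-2 comparison called 2989 (1530 higher) with DESeq2, 4165 (2137 higher) with RLE scaling, 4085 (2685 higher) with library size only and 1976 (1202 higher) against a fold of 1.2. The cause was not tested. The share of 2-against-2 calls in the same direction in the separate libraries was 84.6% with DESeq2 calls and 86.8% with calls against a fold of 1.2.

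Egr3, Xirp1, Smad9, Arhgef28, Bmpr1a, Scn4b and Cdr2l kept their direction in the 25 settings tried, but each missed the threshold in some. The settings in which it was missed numbered 8 for Egr3, 9 for Arhgef28, 10 for Xirp1 and 11 for Bmpr1a. For Smad9, Scn4b and Cdr2l they numbered 12. Of 148 genes with values in the text, 13 changed sign in at least 1 setting. Ptbp1 was at -0.02 log2 with RLE scaling and with DESeq2, and at -0.01 with upper quartile scaling and with all 12 libraries. Id3 was at -0.03 with RLE scaling and with DESeq2, -0.01 with upper quartile scaling and -0.02 with all 12 libraries. On FPKM, Hmox1 was at 0.02 with either pseudocount and Mcm2 at 0.00 with a pseudocount of 0.1. With the microglia covariate Tubb3 and Id3 were at -0.01, Mki67 at 0.91, Mcm2 at 0.02 and Ddx21 at -0.10.

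In 2 against 2, Ptbp1 was at -0.04 (-0.05 with DESeq2 or RLE scaling), Rest at 0.04 (0.03 with DESeq2 or RLE scaling, 0.12 with library size), Id3 at -0.25 (-0.17 with library size) and Hes1 at -0.18 (-0.19 with DESeq2 or RLE scaling, -0.11 with library size). With library size Mcm2 was at 0.06. Over the runs without 1 or both of these libraries, or without any other single one, the log2 fold change ranged from -0.36 to 0.07 for Bmp6, -0.11 to 0.23 for Ddx21, -0.48 to 0.02 for Fosl1 and -0.19 to 0.35 for Hes1. It ranged from -0.54 to 0.23 for Hmox1, -0.41 to 0.04 for Id1, -0.25 to 0.11 for Id3, -0.28 to 1.73 for Il1b and -0.14 to 0.08 for Mcm2. For Mki67 the range was -2.87 to 2.33, for Ptbp1 -0.04 to 0.05, for Rest -0.14 to 0.04 and for Tubb3 -0.07 to 0.45. None of these 13 genes passed the test in all 6 libraries. Values below 1 CPM, such as those of Egr4 at 6 h, rest on few counts.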
